A study of Homo sapiens with 12 samples.

Results

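The 34 genes described here encode enzymes that make, interconvert and recycle the nucleotides of RNA and DNA. They were taken by gene name from a list of such enzymes, and all 34 were present in both deposited count tables, which hold 44938 features for 92.1 and 42342 for MP38. By role, 7 act on deoxyribonucleotides (dNTPs) and thymidylate, 7 in salvage, 11 in purine synthesis de novo, 7 in pyrimidine synthesis de novo and ribonucleotide phosphorylation, and 2 in folate one-carbon transfer. RNA came from 92.1 and MP38, 2 cell lines grown from human uveal melanoma, a melanoma of the eye. Each line was kept for 72 hours in the ATR kinase inhibitor VE-822, also called berzosertib, or in DMSO. There were 3 libraries of poly(A) RNA per line and treatment, 12 in all. The concentration of VE-822 is not given in the labels, which state only that it was tuned line by line to a viability near 40%, so dose and line cannot be told apart. Nor do they tell whether replicate libraries stem from different cultures, so the p-values may measure technical spread alone.

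Cells build purine rings stepwise on ribose phosphate and build the pyrimidine ring before attaching it, and the products serve RNA synthesis, energy transfer and signalling. Ribonucleotide reductase, formed by the large subunit RRM1 and a small subunit, turns ribonucleoside diphosphates into the deoxy forms, and thymidylate synthase adds the methyl group that makes a DNA-specific base. Salvage enzymes return free bases and nucleosides to the nucleotide pool. RRM2, TYMS, TK1 and several of their neighbours in the pathway are known to be expressed mainly around S phase, while ATR is the kinase that answers stalled replication forks. In RNA from bulk cultures, fewer cells in S phase and less RNA per cell cannot be told apart.

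Total counts per library were 113370680 to 137664800 in 92.1 VE-822 and 112374503 to 123705501 in 92.1 DMSO, and 54415628 to 60891725 in MP38 VE-822 and 61045071 to 63638976 in MP38 DMSO. VE-822 and DMSO libraries lay apart on the first principal component of either line, and in 92.1 the second component, with 13.6% of the variance, set DMSO library 3 apart. All 7 markers of the melanocyte lineage were detected, and their summed FPKM (the authors' fragments per kilobase, scaled for library total) was 4937 to 5502 in 92.1 and 1202 to 1509 in MP38. Summed markers of fibroblasts, leukocytes, endothelium and epithelium each stayed at or under 0.605 FPKM in all 12 libraries, while 3 genes of the retinal pigment epithelium summed to 5.66 to 8.63 FPKM in 92.1 and 45.4 to 54.5 FPKM in MP38.

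In 92.1, most of the enzymes were lower in VE-822 than in DMSO, whereas in MP38 the 34 moved in both directions. By edgeR's quasi-likelihood test, called at a Benjamini-Hochberg adjusted p under 0.05, 24 enzymes fell and 2 rose in 92.1, and 8 did not pass. Over all 22943 features tested there, 19.6% were called lower and 20.3% higher. In MP38, 16 fell, 12 rose and 6 did not pass, beside 25.4% called lower and 26.9% higher of 21415 features. In either direction, 26 passed in 92.1, beside 39.9% of features, and 28 in MP38, beside 52.3%. The median log2 fold change of the 34 was -0.47 in 92.1 and -0.05 in MP38, beside 0.03 and -0.01 over all features. Of the 34, 6 fell by at least 1 on the log2 scale in 92.1, where 3.21% of all features did, and 0 rose as far, where 7.67% did. In MP38, 0 fell as far, where 2.44% did.

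The counts of the lines stood furthest apart for the dNTP and salvage enzymes. Of the 7 dNTP and thymidylate enzymes, 5 fell and 1 rose in 92.1, while 2 fell and 4 rose in MP38, and the median was -0.97 in 92.1 and 0.30 in MP38. Salvage showed 5 lower and 1 higher in 92.1 against 2 lower and 5 higher in MP38, with medians of -0.59 and 0.31. The 11 purine enzymes leaned down in both lines, with 8 lower and 0 higher in 92.1 (median -0.45) and 7 lower and 1 higher in MP38 (median -0.13). Of the 7 pyrimidine enzymes, 4 fell and 0 rose in 92.1 (median -0.17), and 3 fell and 2 rose in MP38 (median -0.03). Both folate enzymes fell in both lines.

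**Figure D1:**
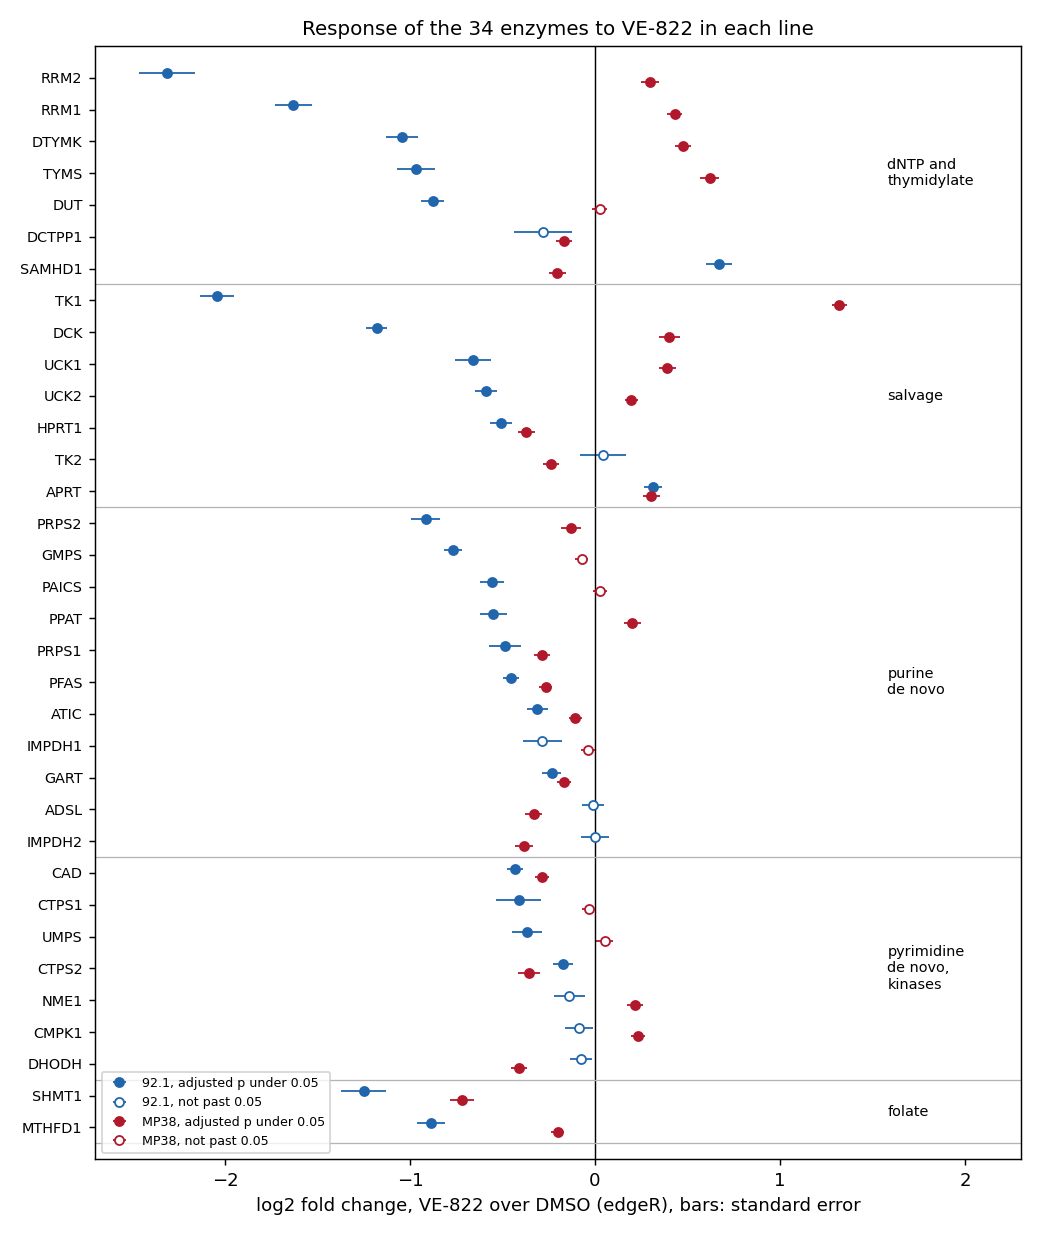
Log2 fold change of VE-822 over DMSO for the 34 enzymes, grouped by role, with 92.1 in blue and MP38 in red and bars for the standard error. Filled points passed an edgeR adjusted p of 0.05; the dNTP and salvage enzymes spread from -2.31 to 0.67 in 92.1, and TK1 stands at 1.32 in MP38.

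Of the 34 enzymes, RRM2 fell most in 92.1, followed by TK1 and then RRM1, and all of them rose in MP38. RRM1 (ENSG00000167325.15, chr11:4094707-4138932 on GRCh38 in the deposited tables), the large subunit of ribonucleotide reductase, had 49.7, 49.2 and 43.8 CPM in VE-822, against 161, 156 and 124 CPM in DMSO, where CPM is the count scaled to a common library total. RRM2 (ENSG00000171848.16, chr2:10120698-10211725), the small subunit used for replication, had 26.3, 24.7 and 19.6 CPM in VE-822, against 129, 129 and 92.8 CPM in DMSO. For both genes the highest VE-822 library lay below the lowest DMSO library, and DMSO library 3 was the lowest of its group. RRM2 fell 4.97-fold in 92.1 (log2 fold change -2.31 ± 0.15 SE, edgeR adjusted p = 8.44e-06), and RRM1 fell 3.09-fold (-1.63 ± 0.10, edgeR adjusted p = 6.62e-06). In MP38, RRM1 had 150.2, 147 and 134 CPM in VE-822, against 107, 105 and 109 CPM in DMSO. There RRM1 rose 1.35-fold (0.43 ± 0.042, edgeR adjusted p = 3.31e-08), the opposite direction to 92.1. RRM2 in MP38 had 91.8, 92.8 and 79.7 CPM in VE-822, against 69.8, 72.2 and 72.7 CPM in DMSO, a rise of 1.23-fold (0.30 ± 0.048, edgeR adjusted p = 2.49e-05). The MP38 groups did not overlap for either gene, but in a joint fit of all 12 libraries the edgeR adjusted p of RRM2 in MP38 was 0.0512.

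Thymidylate enzymes followed the same split. TYMS (ENSG00000176890.16, chr18:657653-673578), thymidylate synthase, had 45.99, 47.8 and 45.02 CPM in VE-822, against 101, 96.3 and 74.2 CPM in DMSO in the 92.1 libraries, and 23.9, 22.3 and 23.6 CPM in VE-822, against 15.5, 14.6 and 15.3 CPM in DMSO in the MP38 libraries. It was thus lower with VE-822 in 92.1 and higher in MP38, with no overlap of groups in either line. Its log2 fold change was -0.97 ± 0.10 in 92.1 (SE, edgeR adjusted p = 1.56e-04) and 0.62 ± 0.053 in MP38 (edgeR adjusted p = 4.40e-09). DTYMK (ENSG00000168393.13, chr2:241675747-241686944), thymidylate kinase, which carries out the next phosphorylation, had 15.9, 16.97 and 16.5 CPM in VE-822, against 35.8, 36.5 and 29.5 CPM in DMSO in 92.1. In MP38 it had 33.6, 36.1 and 34.2 CPM in VE-822, against 24.8, 25.01 and 24.9 CPM in DMSO. The MP38 DMSO libraries lay close together, all VE-822 libraries lay above them, and the log2 fold change was 0.48 ± 0.045, against -1.04 ± 0.087 in 92.1. DUT, the dUTPase that keeps uracil out of DNA and supplies dUMP, averaged 49.04 ± 2.43 CPM in VE-822 and 90.1 ± 5.34 CPM in DMSO in 92.1 (SD, n = 3 each), a 1.84-fold fall. In MP38 DUT averaged 104 ± 3.38 and 102 ± 4.02 CPM, and the groups overlapped (edgeR adjusted p = 0.625).

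The 2 other dNTP enzymes degrade nucleotides. SAMHD1, a triphosphohydrolase that breaks down dNTPs, ran against the synthetic enzymes in both lines. It had 24.7, 24.1 and 23.02 CPM in VE-822, against 14.7, 16.3 and 14.2 CPM in DMSO in 92.1, a rise of 1.59-fold (log2 0.67 ± 0.070 SE, edgeR adjusted p = 1.39e-04). In MP38 it had 30.3, 31.5 and 29.2 CPM in VE-822, against 35.7, 34.6 and 34.6 CPM in DMSO, and fell 1.15-fold (-0.20 ± 0.045). SAMHD1 was the single member called higher in 92.1 and lower in MP38, a pattern held by 5.94% of the 19146 features tested in both lines. DCTPP1, a pyrophosphatase that removes dCTP and modified dCTP, averaged 35.1 ± 0.283 CPM in VE-822 and 42.7 ± 10.5 CPM in DMSO of 92.1. That wide spread in DMSO came from library 3, at 30.6 CPM against 48.4 and 49.2 CPM in libraries 1 and 2, and DCTPP1 did not pass there (edgeR adjusted p = 0.188), but fell by 0.51 without library 3. In MP38 DCTPP1 fell by 0.17, a call lost in the joint fit (edgeR adjusted p = 0.352).

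Of the salvage enzymes, TK1 differed most between treatments in both lines and in opposite directions. TK1 (ENSG00000167900.12, chr17:78174091-78187233), the cytosolic thymidine kinase, had 26.3, 27.2 and 23.4 CPM in VE-822, against 109, 115 and 92.2 CPM in DMSO in 92.1. In MP38 it had 70.2, 68.4 and 69.97 CPM in VE-822, against 26.8, 27.8 and 28.8 CPM in DMSO. VE-822 and DMSO did not overlap in either line. TK1 fell 4.12-fold in 92.1 (log2 -2.04 ± 0.093 SE, edgeR adjusted p = 1.36e-06) and rose 2.50-fold in MP38 (1.32 ± 0.041, edgeR adjusted p = 9.83e-16). In MP38 it was the one member that rose by at least 1 on the log2 scale, where 4.57% of all features did.

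DCK (ENSG00000156136.10, chr4:70992538-71030914), the deoxycytidine kinase that also activates nucleoside drugs, had 22.7, 22.7 and 21.4 CPM in VE-822, against 53.2, 49.9 and 48.5 CPM in DMSO in 92.1, a 2.27-fold fall (-1.18 ± 0.059, edgeR adjusted p = 1.87e-06). Its 3 DMSO libraries lay close together, library 3 included. In MP38 DCK had 24.5, 22.6 and 22.4 CPM in VE-822, against 16.3, 17.4 and 18.8 CPM in DMSO and rose 1.32-fold. The uridine-cytidine kinases did likewise: UCK1 and UCK2 changed by -0.66 and -0.59 on the log2 scale in 92.1, and by 0.39 and 0.20 in MP38, all past the threshold. The kinases of salvage thus fell in 92.1 and rose in MP38, except the mitochondrial thymidine kinase TK2, whose log2 fold change was 0.043 ± 0.12 in 92.1, where it did not pass, and -0.24 ± 0.044 in MP38, where it fell. That call of TK2 was lost in the joint fit (edgeR adjusted p = 0.0656).

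The 2 phosphoribosyltransferases each kept 1 direction in both lines, APRT higher and HPRT1 lower. APRT, which salvages adenine, was higher in VE-822 in both lines, the only member called so, beside 5.7% of the 19146 features tested in both. It had 80.7, 76.8 and 78.4 CPM in VE-822, against 61.8, 65.7 and 62.3 CPM in DMSO in 92.1, and 126, 141 and 148 CPM in VE-822, against 112, 112 and 111 CPM in DMSO in MP38. The log2 fold changes were 0.31 ± 0.048 and 0.31 ± 0.047, and the groups did not overlap in either line. HPRT1, which salvages hypoxanthine and guanine, averaged 24.7 ± 0.836 and 35.2 ± 1.61 CPM in VE-822 and DMSO of 92.1, and 31.3 ± 1.42 and 40.4 ± 1.08 CPM in MP38 (SD, n = 3 each). It fell by 0.51 in 92.1 and by 0.37 in MP38.

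**Figure D2:**
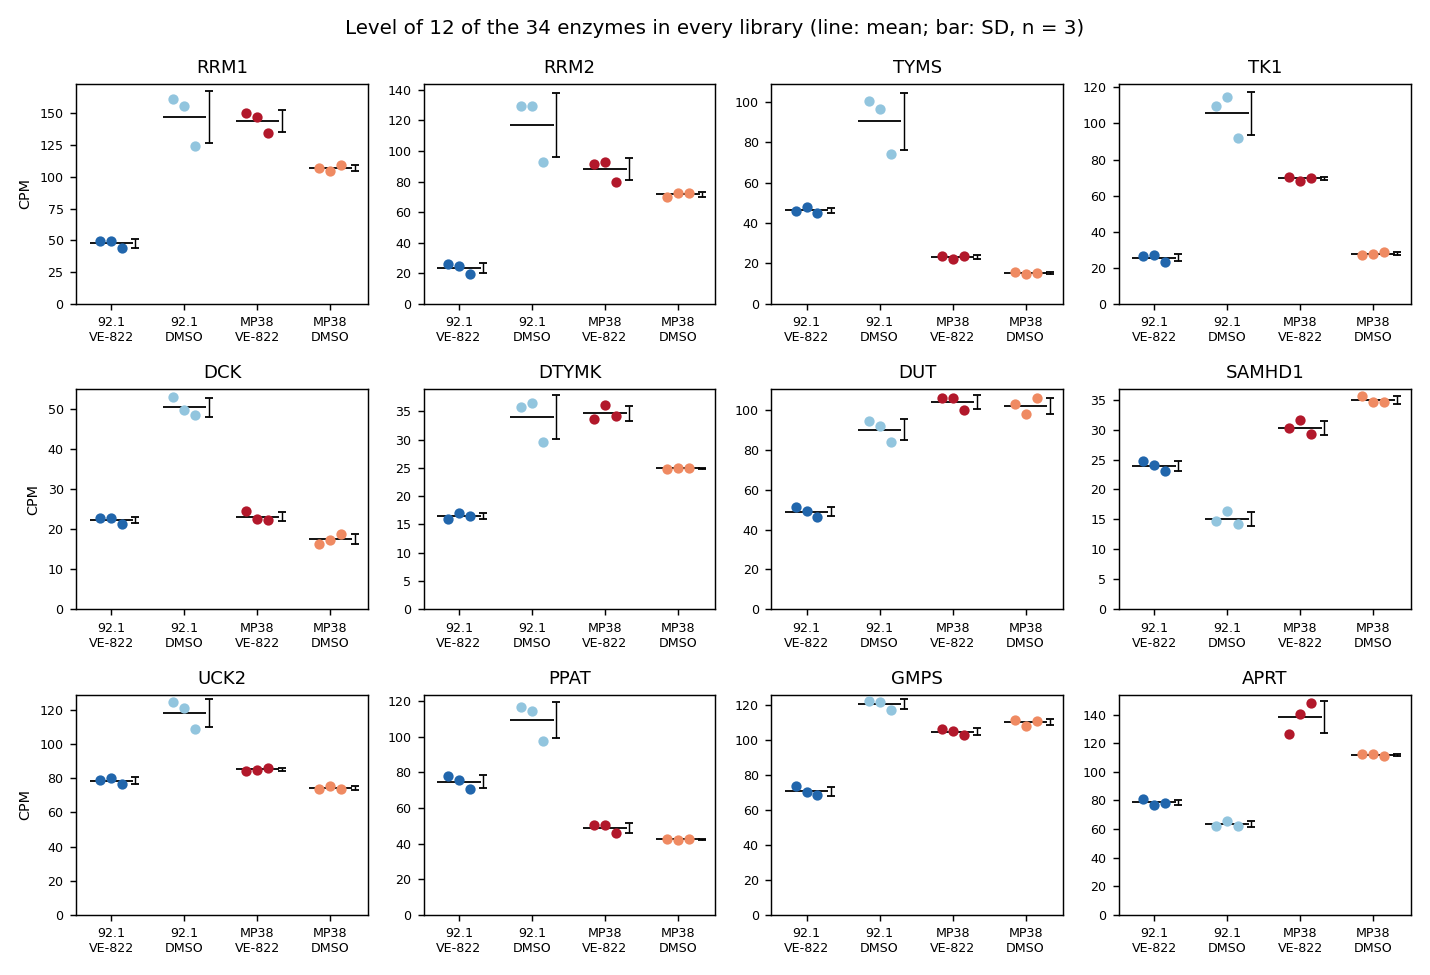
Levels in CPM (linear axes from 0) of 12 enzymes in each library, with the mean as a line and the SD as a bar (n = 3). RRM1, RRM2, TYMS, TK1, DCK and DTYMK are lower in 92.1 VE-822 than in 92.1 DMSO and higher in MP38 VE-822 than in MP38 DMSO, and APRT is higher in VE-822 in both lines.

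Promoter sequence is shown for 5 of the 9 enzymes called lower in 92.1 and higher in MP38, so that their start regions can be read. The 5 were picked by hand. RefSeq windows on GRCh38.p14, from 250 bases before to 50 after each start, matched 32 of the 34 members, in 43 windows. The letters searched on both strands were CCAAT (the box bound by NF-Y), TTTCCCGC, TTTGGCGC, TTTCGCGC and TTTGCCGC (forms of the E2F site), CACGTG (the E-box bound by MYC and others) and TTTGAA (a form of the CHR element of cell-cycle genes). None of these letter strings contains another, and other forms of these sites were not searched. Each stretch below runs 5′ to 3′ on the gene's strand and ends at the base before a RefSeq start. Capitals mark CCAAT or its reverse complement ATTGG, except in TYMS, where they mark the reverse complement of an E2F form. They lie at chr2:10122609-10122738 (RRM2, plus strand), chr17:78187053-78187152 (TK1, minus), chr11:4094625-4094684 (RRM1, plus), chr2:241686816-241686925 (DTYMK, minus) and chr18:657593-657652 (TYMS, plus).
RRM2: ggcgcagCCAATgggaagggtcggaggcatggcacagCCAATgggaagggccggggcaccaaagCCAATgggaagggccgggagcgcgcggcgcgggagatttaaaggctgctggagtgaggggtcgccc
TK1: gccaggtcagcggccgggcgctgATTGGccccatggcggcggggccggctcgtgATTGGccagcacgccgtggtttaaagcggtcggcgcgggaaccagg
RRM1: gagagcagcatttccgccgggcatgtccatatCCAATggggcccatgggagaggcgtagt
DTYMK: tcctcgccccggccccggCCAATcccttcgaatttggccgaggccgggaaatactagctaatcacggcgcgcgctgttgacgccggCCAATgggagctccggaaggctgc
TYMS: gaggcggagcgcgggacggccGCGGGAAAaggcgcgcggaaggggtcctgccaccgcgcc
The RRM2 stretch holds 3 CCAAT boxes, those of TK1 and DTYMK hold 2 each, and that of RRM1 holds 1. The length of each stretch was set by hand, from 60 bases for RRM1 and TYMS to 130 for RRM2. Where a gene had several windows, the one with the most matches in its stretch was taken. The numbers of boxes depend on these choices and do not compare the genes. In the deposited annotation longer isoforms of RRM2, TK1 and DTYMK begin upstream, so that these stretches lie within the annotated gene spans; those of RRM1 and TYMS lie outside them.

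Over the 32 members, CCAAT occurred in 13, or 40.6%, beside 39.7% of the 27305 genes in the table. One of the E2F forms occurred in 5 members (DCK, DUT, GART, PRPS2 and TYMS), or 15.6%, beside 3.99% of all genes. CACGTG occurred in 8 members, or 25.0%, beside 8.77%. TTTGAA occurred in 3 (DUT, RRM1 and UMPS), or 9.38%, beside 18.2%, and in RRM1 it lay outside the stretch printed above. By role, CCAAT was in 4 of 7 dNTP enzymes, 2 of 7 salvage enzymes, 2 of 9 purine enzymes with a window, 3 of 7 pyrimidine enzymes and both folate enzymes. Some enzymes called lower in 92.1 and higher in MP38 have no stretch among those first shown. Of these, UCK2 had CCAAT, and DCK, UCK1 and PPAT did not. All these are matches of letters and show no binding.

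Purine synthesis starts with PRPP, made by PRPS1 and PRPS2, on which PPAT commits the pathway and GART, PFAS, PAICS, ADSL and ATIC build inosine monophosphate. In 92.1, PRPS2 fell most of these, with 26.6, 26.1 and 24.1 CPM in VE-822, against 51.5, 50.2 and 43.2 CPM in DMSO and a log2 fold change of -0.92 ± 0.078 SE (edgeR adjusted p = 4.07e-05). The groups did not overlap. PRPS1 fell by 0.48 in 92.1 and by 0.29 in MP38, whereas PRPS2 in MP38 fell by 0.13 with overlapping groups, a call lost under 9 of the alternatives. PPAT, the amidophosphoribosyltransferase, had 77.8, 75.8 and 70.7 CPM in VE-822, against 117, 114 and 97.6 CPM in DMSO in 92.1, and 50.2, 50.7 and 45.7 CPM in VE-822, against 42.7, 42.1 and 42.5 CPM in DMSO in MP38. It fell by 0.55 in 92.1 and rose by 0.20 in MP38, where it was the only purine enzyme called higher.

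PAICS, the bifunctional enzyme that adds carbon dioxide and aspartate, averaged 324 ± 9.75 CPM in VE-822 and 477 ± 37.7 CPM in DMSO of 92.1 (SD, n = 3 each), a fall of 0.56, and did not pass in MP38 (0.025 ± 0.037, edgeR adjusted p = 0.606). PFAS, GART and ATIC fell in both lines, by 0.45, 0.23 and 0.31 in 92.1 and by 0.27, 0.17 and 0.11 in MP38. The largest of these 6 falls was that of PFAS in 92.1, at 1.37-fold. The call of ATIC in MP38 was lost under 4 alternatives (adjusted p 0.0636 to 0.136), and that of GART in 92.1 with a filter of at least 5 CPM, where it stood at -0.14 (edgeR adjusted p = 0.0509). ADSL, adenylosuccinate lyase, did not pass in 92.1 (-0.010 ± 0.059, edgeR adjusted p = 0.909) and fell by 0.33 in MP38.

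The branch to guanine nucleotides split between its steps. IMPDH2, the inosine monophosphate dehydrogenase isoform that predominates in proliferating cells, had 345, 346 and 330.3 CPM in VE-822, against 321, 315 and 386 CPM in DMSO in 92.1. The group means were both 341 CPM, since DMSO library 3 was the highest of the 6, and the log2 fold change was -5.0e-05 ± 0.078. In MP38 it had 453, 453 and 509 CPM in VE-822, against 617, 582 and 645 CPM in DMSO, a fall of 0.38 without overlap (edgeR adjusted p = 1.15e-06). GMPS, which makes guanosine monophosphate from the product, passed in 92.1 and not in MP38. It had 73.3, 70.3 and 68.1 CPM in VE-822, against 122, 121 and 117 CPM in DMSO in 92.1, a fall of 0.77 (edgeR adjusted p = 6.59e-06), and 106, 105 and 103 CPM in VE-822, against 111, 108 and 111 CPM in DMSO in MP38, where it did not pass (edgeR adjusted p = 0.104) although the groups did not overlap. GMPS was called lower in MP38 under 4 alternatives, with adjusted p of 0.0201 to 0.0374. IMPDH1 was the 1 member that passed in neither line, as did 30.1% of features, at -0.28 ± 0.11 in 92.1 and -0.036 ± 0.038 in MP38. It was called lower in 92.1 under 4 alternatives, with edgeR adjusted p of 0.0293 in the joint fit and a fall of 0.45 without DMSO library 3, and in MP38 by limma on both FPKM scales (adjusted p 0.0344 and 0.0403).

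PPAT and PAICS are neighbours on chromosome 4 and are transcribed away from each other from a shared gap, which is printed because both genes fell in 92.1 while PPAT alone was called in MP38. The 136 bases between their RefSeq starts, chr4:56435616-56435751 on GRCh38.p14, read on the plus strand, which is the strand of PAICS, as follows.
PPAT-PAICS: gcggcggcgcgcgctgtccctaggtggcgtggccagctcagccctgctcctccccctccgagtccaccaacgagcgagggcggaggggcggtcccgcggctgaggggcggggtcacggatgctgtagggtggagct
None of the letter strings searched lies in this gap. CACGTG occurred in windows of both genes, and these windows overlap, so the same match may count for both. In 92.1 the log2 fold changes were -0.55 ± 0.074 for PPAT and -0.56 ± 0.064 for PAICS. In MP38 they were 0.20 ± 0.044 and 0.025 ± 0.037, and the difference between the 2 genes was not tested.

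Pyrimidine synthesis had the median nearest to 0 of the 5 roles in 92.1. CAD, which carries the first 3 activities of the pathway in 1 protein, averaged 143 ± 3.18 and 194 ± 5.76 CPM in VE-822 and DMSO of 92.1, and 284 ± 4.13 and 347 ± 7.05 CPM in MP38 (SD, n = 3 each). It fell in both lines, by 0.43 in 92.1 and 0.29 in MP38. DHODH, the mitochondrial dehydrogenase of the next step, had 27.2, 27.6 and 28.3 CPM in VE-822, against 37.8, 36.9 and 35.9 CPM in DMSO in MP38 and fell there by 0.41 without overlap. In 92.1 DHODH was low, at 12.8 ± 0.0736 CPM in VE-822 and 13.4 ± 0.386 CPM in DMSO. There it did not pass (edgeR adjusted p = 0.345), although the groups did not overlap. UMPS, which makes uridine monophosphate, fell by 0.37 in 92.1 and did not pass in MP38 (0.053 ± 0.047).

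The CTP synthetases, which aminate UTP, fell by 0.41 for CTPS1 and 0.17 for CTPS2 in 92.1. Each of these calls was lost under 9 alternatives, with adjusted p of 0.0544 to 0.118 for CTPS1 and 0.0577 to 0.191 for CTPS2. In MP38, CTPS2 fell by 0.35 and CTPS1 did not pass (-0.031 ± 0.038). The kinases CMPK1, for nucleoside monophosphates, and NME1, for diphosphates, rose in MP38 by 0.23 and 0.22. In 92.1 neither passed, at -0.085 ± 0.076 and -0.14 ± 0.083, but both did without DMSO library 3, with falls of 0.20 and 0.26.

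SHMT1 and MTHFD1 supply the folate-bound carbon units used for thymidylate and purine rings. SHMT1, the cytosolic serine hydroxymethyltransferase, had 12.8, 13.5 and 11.5 CPM in VE-822, against 32.96, 32.6 and 24.3 CPM in DMSO in 92.1, a 2.38-fold fall (-1.25 ± 0.12 SE, edgeR adjusted p = 8.96e-05). In MP38 it had 23.5, 25.7 and 24.9 CPM in VE-822, against 40.3, 36.1 and 45.4 CPM in DMSO, a 1.64-fold fall (-0.72 ± 0.064, edgeR adjusted p = 8.05e-09), the largest decrease among the 34 in that line. The groups did not overlap in either line. MTHFD1, the trifunctional folate enzyme of the cytosol, fell by 0.88 in 92.1 and by 0.20 in MP38. Both enzymes thus fell where thymidylate synthase rose, in MP38, as well as where it fell, in 92.1.

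Levels per length, in FPKM, give the order of the enzymes. The length is the summed length in the deposited annotation, such as 12109 bases for ADSL and 2421 for TYMS. Ranks therefore depend on that annotation. In MP38 DMSO, ADSL averaged 25.1 CPM and TYMS 15.1 CPM, yet ADSL ranked below TYMS in FPKM. IMPDH2 ranked first by mean in all 4 groups, at 68.1 ± 0.998 and 64.9 ± 7.27 FPKM in VE-822 and DMSO of 92.1 and 90.7 ± 4.11 and 121 ± 5.84 FPKM in MP38 (SD, n = 3 each). In 92.1 DMSO the next ranks were PAICS and TK1, at 61.9 ± 5.05 and 55.8 ± 6.46 FPKM, and the libraries of neighbouring ranks overlapped from IMPDH2 through TK1. There PAICS exceeded IMPDH2 in libraries 1 and 2, at 64.7 and 64.97 against 61.1 and 60.3 FPKM. In library 3 it lay below, at 56.1 against 73.3 FPKM, so the first rank of IMPDH2 in that group rests on library 3. In 92.1 VE-822 TK1 ranked 13th, at 14.2 ± 0.933 FPKM, and RRM2 29th, at 2.63 ± 0.350 FPKM. In MP38, TK1 ranked 5th in VE-822 at 37.1 ± 0.829 FPKM and 14th in DMSO at 15.3 ± 0.532 FPKM. The lowest levels were those of TK2 in 92.1, at 1.18 ± 0.0580 and 1.09 ± 0.196 FPKM in VE-822 and DMSO, and of ADSL in MP38, at 1.62 ± 0.0241 and 2.10 ± 0.0265 FPKM.

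Summed over the 7 dNTP and thymidylate enzymes, the level was 79.7 ± 1.42 FPKM in VE-822 and 149 ± 22.5 FPKM in DMSO of 92.1, and 122 ± 6.78 and 109.99 ± 1.23 FPKM in MP38. The salvage sum was 108 ± 1.23 and 164 ± 12.3 FPKM in 92.1 and 166 ± 3.82 and 133 ± 0.351 FPKM in MP38. Neither pair of groups overlapped in either line, with VE-822 lower in 92.1 and higher in MP38. The purine sum was lower in VE-822 in both, at 227 ± 2.86 and 276 ± 5.34 FPKM in 92.1 and 283 ± 1.54 and 332 ± 6.07 FPKM in MP38. With 3 libraries against 3, an exact permutation test of such a sum can go no lower than p = 0.1, so none was run.

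In MP38 the ratio of each isoenzyme pair named below lay apart between VE-822 and DMSO. In 92.1 it lay apart for some pairs and overlapped for others. RRM2B, a small subunit of ribonucleotide reductase induced by p53 and not among the 34, had 119, 115 and 117 CPM in VE-822, against 53.5, 50.97 and 62.2 CPM in DMSO of 92.1. It rose 2.11-fold (1.07 ± 0.073 SE, edgeR adjusted p = 1.10e-05), and the FPKM ratio of RRM2 to RRM2B was 0.118 ± 0.0175 in VE-822 and 1.27 ± 0.337 in DMSO (SD, n = 3 each). VE-822 libraries of 92.1 thus held several times more RRM2B than RRM2 per length. Among the DMSO libraries of 92.1, RRM2B exceeded RRM2 per length in library 3 alone. In CPM, which is not divided by length, RRM2 was the higher of the pair in that library, at 92.8 against 62.2. In MP38, RRM2B fell by 0.31, and the ratio was 2.38 ± 0.203 in VE-822 and 1.56 ± 0.0789 in DMSO.

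The ratio of TK1 to TK2 was 12.03 ± 0.242 in VE-822 and 52.9 ± 15.1 in DMSO of 92.1, and 11.1 ± 0.311 and 3.78 ± 0.166 in MP38, so the lines lay closer to each other in VE-822 than in DMSO. PRPS2 to PRPS1 stood at 1.01 ± 0.0116 and 1.36 ± 0.0403 in VE-822 and DMSO of 92.1, and at 1.08 ± 0.0461 and 0.968 ± 0.0241 in MP38. VE-822 thus had the lower ratio in 92.1 and the higher one in MP38, with no overlap in either line. CTPS1 to CTPS2 was 1.01 ± 0.00761 and 1.20 ± 0.256 in 92.1 with overlap, and 2.95 ± 0.0775 and 2.37 ± 0.247 in MP38 without it. UCK2 to UCK1 was 0.908 ± 0.0239 and 0.871 ± 0.0695 in 92.1 with overlap, and 1.07 ± 0.0182 and 1.22 ± 0.0534 in MP38 without it. IMPDH2 to IMPDH1 was 3.34 ± 0.117 and 2.84 ± 0.867 in 92.1 with overlap, and 2.35 ± 0.0696 and 2.99 ± 0.148 in MP38 without it. Reads from processed pseudogenes can blur some of these ratios: counts listed under pseudogenes of PRPS1 came to 6.67% of its own in 92.1 and 1.79% in MP38, and those of IMPDH1 to 2.09% and 4.53%.

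**Figure D3:**
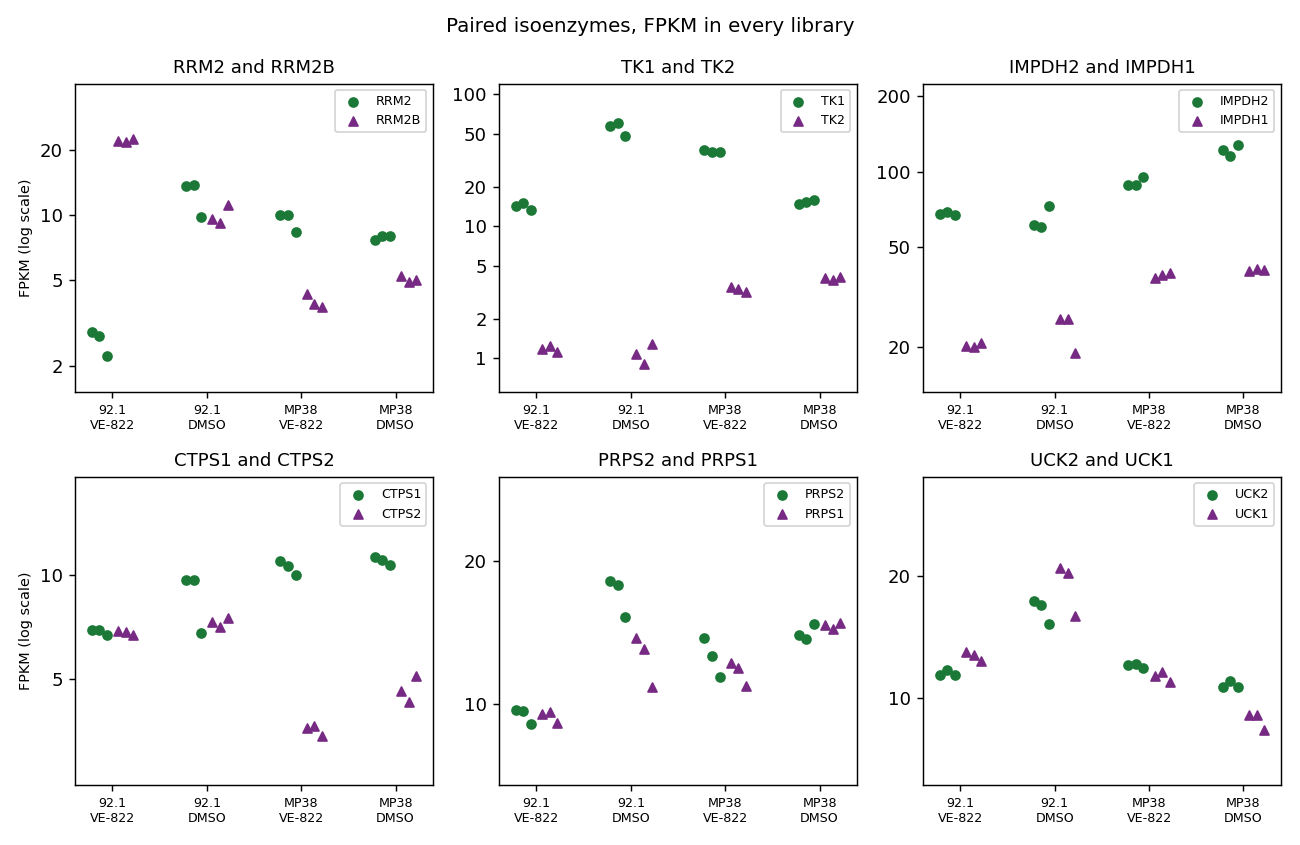
FPKM on log axes of 6 pairs of isoenzymes in each library, with circles for the first gene named and triangles for the second. In 92.1 VE-822 the RRM2B points lie above RRM2 in all 3 libraries, and in MP38 the RRM2 points lie above RRM2B in all 6.

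Whether the 2 lines responded differently was tested as the 92.1 response minus the MP38 response in 1 fit of all 12 libraries. The difference passed for 23 of the 34 enzymes, beside 40.9% of features. It was below 0 for 19, beside 18.8% of 24958 features, and above 0 for 4, beside 22.1%; the median was -0.34, beside 0.11 over all features. TK1 had the most negative difference, -3.33 ± 0.11 SE (edgeR adjusted p = 1.88e-12), followed by RRM2 at -2.59 ± 0.17, RRM1 at -2.03 ± 0.12, TYMS at -1.56 ± 0.12 and DCK at -1.55 ± 0.090. The 4 enzymes with a positive difference were SAMHD1 at 0.90 ± 0.087, IMPDH2 at 0.41 ± 0.098, DHODH at 0.37 ± 0.071 and ADSL at 0.35 ± 0.074; the last 3 fell in MP38 and did not pass in 92.1. All 7 differences of at least 1 in size were negative and belonged to dNTP and salvage enzymes, while of all features 4.97% were called at or below -1 and 9.79% at or above 1.

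By role, the difference passed below 0 for 5 of 7 dNTP enzymes (median -1.49), 4 of 7 salvage enzymes (median -0.76), 5 of 11 purine enzymes (median -0.18), 3 of 7 pyrimidine enzymes (median -0.29) and both folate enzymes. The enzymes that did not pass include APRT, at 0.038 ± 0.077, and GART, at -0.035 ± 0.066, both within 1 SE of 0. ATIC and CTPS1 missed narrowly, with edgeR adjusted p of 0.0507 and 0.0501. PFAS passed at 0.0465 and lost the call under 8 alternatives. Another filter, of at least 5 CPM on average, raised all 34 differences by 0.117 to 0.124, so small ones depend on the scaling.

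**Figure D4:**
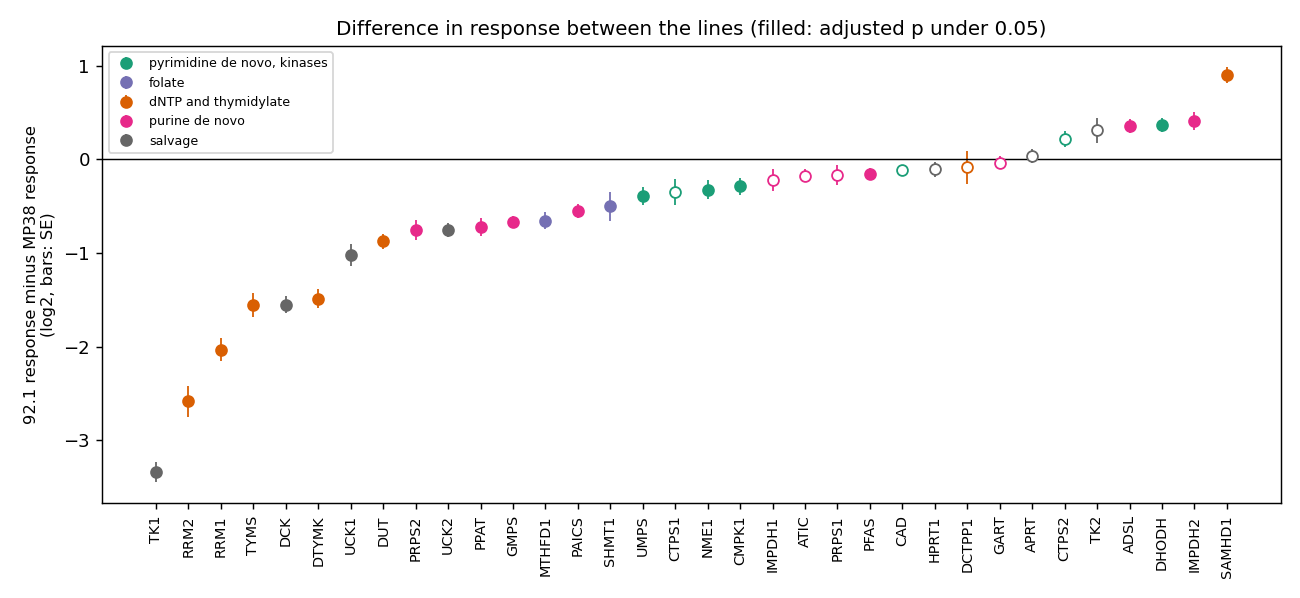
The 92.1 response minus the MP38 response for each of the 34 enzymes, sorted, in log2 units with bars for the standard error and colours for the role. Filled points passed an edgeR adjusted p of 0.05; TK1 lies lowest, at -3.33, and SAMHD1 highest, at 0.90.

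Set against both responses at once, 9 enzymes were called lower in 92.1 and higher in MP38 (RRM1, RRM2, TYMS, DTYMK, TK1, DCK, UCK1, UCK2 and PPAT), beside 8.32% of the 19146 features tested in both. A further 10 were lower in both (CAD, CTPS2, MTHFD1, SHMT1, PRPS1, PRPS2, GART, PFAS, ATIC and HPRT1), beside 6.29%. The first set holds 4 of the 7 dNTP enzymes and 4 of the 7 salvage enzymes, and the second holds 5 of the 11 purine enzymes and both folate enzymes. Some of the calls behind these sets were lost under alternatives. In the first set these were RRM2 and PPAT in MP38, and in the second PRPS2 and ATIC in MP38 and CTPS2 and GART in 92.1. Across the 34 enzymes the responses of the lines had a Pearson r of -0.511 and a Spearman rho of -0.455, beside 0.0148 and -0.0424 over the 19146 features. Genes are not independent replicates, and the points share libraries, so these are descriptions only.

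DMSO library 3 of 92.1 touched many of these values. On the log2 scale it lay 0.36 below the mean of DMSO libraries 1 and 2 for RRM1, 0.48 below for RRM2 and 0.68 below for DCTPP1, and 0.28 above for IMPDH2. Without it, 28 of the 34 fell and 2 rose in 92.1, where 6899 of 23816 features were lower, and the median was -0.58. RRM2 then had a log2 fold change of -2.49, RRM1 of -1.77, TYMS of -1.12 and TK1 of -2.16, each somewhat larger in size than with it. The difference between lines then passed for 26 enzymes below 0 and 6 above, beside 6015 and 5897 of 24285 features. Why this library lay apart was not tested.

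A wider list of nucleotide and folate genes, beyond the 34, held no such majority. Of 59 tested in 92.1, 19 fell and 14 rose, beside 19.6% of features called lower and 20.3% higher. Of 58 tested in MP38, 18 fell and 22 rose, beside 25.4% and 26.9%. Among its genes, GGH, the hydrolase that trims folate polyglutamates, fell by 1.32 in 92.1 and rose by 0.80 in MP38.

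In a list of 11 replication and cell-cycle genes, which includes MCM helicase subunits, PCNA, E2F1 and MKI67, all 11 fell in 92.1 (median -1.88), beside 19.6% of features. In MP38, 9 fell and 1 rose (median -0.28), beside 25.4% and 26.9%. The one that rose was MKI67, which marks cycling cells, at 257, 250.1 and 252 CPM in VE-822, against 111, 109 and 115 CPM in DMSO. PCNA, the replication clamp, fell by 0.21 in MP38, where RRM1, RRM2, TYMS and TK1 rose. The part of cell-cycle phase in these values was not tested. The sources used here do not say if counting was stranded, so enzymes that overlap a gene on the other strand, such as TYMS with ENOSF1, carry some uncertainty. NME1 overlaps NME1-NME2 on its own strand, so its counts are uncertain whether or not counting was stranded. RRM1, DUT, SAMHD1, DCTPP1, UCK2, TK2, GART, SHMT1 and MTHFD1 also overlap other genes and may share reads with them.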

How the data were processed

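Poly(A) RNA of 12 libraries from 2 cell lines was analysed. Per the submitters' processing notes, cutadapt 4.8, FastQC 0.12.1, MultiQC 1.7, STAR 2.7.11a, featureCounts 2.0.6 and the GRCh38.p13 build were used, without stated parameters. The authors deposited raw counts per gene, 1 table per line, with no normalization. The authors also deposited FPKM values, which equal those recomputed from the counts, lengths and totals within rounding for all 254052 values of MP38 and all 269628 of 92.1.

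Counts were tested in R 4.3.3 with edgeR 4.0.16. Features were kept by filterByExpr (minimum count 10, minimum total 15), scaled by TMM and compared by the quasi-likelihood F test in each line alone, and in 1 fit of 12 libraries for the difference between lines. The Benjamini-Hochberg adjustment ran over all features tested, and a call needed an adjusted p under 0.05. All 34 members passed the filter in each fit. CPM values use TMM factors. The fits were tested on simulated data. Alternatives were other scalings, filters, DESeq2 1.42.0, limma 3.58.1 on log2(FPKM + 1) and log2(FPKM + 0.1), a robust fit, a replicate block and leaving out each library. Promoter windows came from RefSeq.

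The 34 members and all lists were chosen with earlier results of these data known. Named in the text are all members, RRM2B, and of the wider list the 6 called genes with the smallest adjusted p in each line, some of which are not reported here; MKI67, PCNA and the libraries singled out were chosen after their values were seen.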

Additional observations from a re-analysis of the deposited data

Results flagged for a closer look

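The response to VE-822 differed between the lines for 23 enzymes, by the interaction term of the joint edgeR fit with Benjamini-Hochberg adjustment. Values are the 92.1 response minus the MP38 response in log2 units. Among dNTP and thymidylate enzymes the differences were -2.59 for RRM2, -2.03 for RRM1, -1.56 for TYMS, -1.49 for DTYMK, -0.87 for DUT and 0.90 for SAMHD1. Salvage kinases differed by -3.33 for TK1, -1.55 for DCK, -1.02 for UCK1 and -0.76 for UCK2. Purine enzymes differed by -0.76 for PRPS2, -0.72 for PPAT, -0.67 for GMPS, -0.55 for PAICS, -0.16 for PFAS, 0.35 for ADSL and 0.41 for IMPDH2. Pyrimidine enzymes differed by -0.39 for UMPS, -0.33 for NME1, -0.29 for CMPK1 and 0.37 for DHODH. The folate enzymes differed by -0.66 for MTHFD1 and -0.50 for SHMT1. With library size only, at least 5 CPM or either FPKM scale, the calls of NME1 and CMPK1 were lost, at -0.25 to -0.20 and -0.21 to -0.17. At 5 CPM or either FPKM scale that of SHMT1 was lost, at -0.39 to -0.24. The dose of VE-822 was set line by line and the depth of the libraries differs between the lines, and neither can be told apart from the line here.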

How the results depend on the processing

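Under every alternative run, no enzyme called in the main comparison was called in the opposite direction, and 45 of 1802 single values changed sign, none called in either fit and none above 0.0895 in size under the alternative. The median of all 34 in 92.1 was -0.40 with library size only, -0.38 with at least 5 CPM, -0.51 with DESeq2, -0.37 on log2(FPKM + 1) and -0.39 on log2(FPKM + 0.1). In MP38 it was -0.092 with library size only, -0.087 on log2(FPKM + 1) and -0.092 on log2(FPKM + 0.1). For the difference it was -0.39 with RLE factors, -0.40 with DESeq2, -0.26 with library size only, -0.22 with at least 5 CPM, -0.23 on log2(FPKM + 1) and -0.25 on log2(FPKM + 0.1). With library size only, at least 5 CPM or either FPKM scale, 2 pyrimidine enzymes were lower in 92.1, and for the difference 1 was lower and 2 higher. RLE factors and DESeq2 gave 5 lower pyrimidine enzymes for the difference. Library size only, at least 5 CPM and log2(FPKM + 1) each added 1 salvage enzyme with a higher difference, and at least 5 CPM and both FPKM scales left 1 folate enzyme lower. In MP38, log2(FPKM + 1) left 0 purine enzymes higher, and the joint fit left 1 dNTP and 1 salvage enzyme lower. The cause was not tested.

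Leaving out 1 library at a time, the median ranged from -0.58 to -0.45 in 92.1, from -0.064 to -0.053 in MP38 and from -0.50 to -0.26 for the difference. In 92.1, 22 to 28 of the 34 were lower and 2 higher, with 2 to 6 pyrimidine, 5 to 6 dNTP and 8 to 9 purine enzymes lower. In MP38, 14 to 16 were lower, with 5 to 7 purine enzymes among them. For the difference 18 to 26 were lower and 4 to 6 higher. Among these, 4 to 8 purine, 3 to 5 pyrimidine, 5 to 6 dNTP and 4 to 5 salvage enzymes were lower, and 1 to 2 pyrimidine and 0 to 1 salvage enzymes were higher. The highest counts came without DMSO library 3 of 92.1. Deviations of same-numbered libraries correlated at -0.0208 to -0.00302 in MP38 and 0.0406 to 0.0822 in 92.1, too low to pair them, although each VE-822 library of 92.1 did correlate best with its own number. With the replicate number as a block, 23 enzymes were lower and 2 higher in 92.1, 15 lower and 12 higher in MP38, and 19 lower and 4 higher for the difference.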

Other observations

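Further genes of the wider list were named for having the smallest adjusted p in a line. NT5E, the surface nucleotidase that makes adenosine, had 21.9, 21.4 and 18.7 CPM in VE-822, against 6.29, 7.18 and 9.23 CPM in DMSO of 92.1, and 76.9, 76.7 and 77.3 CPM in VE-822, against 38.98, 38.3 and 37.7 CPM in DMSO of MP38. It rose in both lines, by 1.45 and 1.01 on the log2 scale (edgeR adjusted p = 6.75e-05 and 1.52e-14), with no overlap of groups. UPP1, uridine phosphorylase, rose in both lines too, by 0.49 in 92.1 and 1.20 in MP38. PNP, purine nucleoside phosphorylase, and DGUOK, the mitochondrial deoxyguanosine kinase, each rose by 0.54 in MP38; neither passed in 92.1, at -0.11 and -0.060. SLC19A1, the reduced folate carrier, fell in both lines, by 0.37 in 92.1 and 0.90 in MP38.

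The nucleotide-pool cleaner NUDT1, which removes oxidised purine triphosphates, fell in 92.1 by 1.18 and rose in MP38 by 0.32. NUDT1 averaged 6.34 ± 0.478 CPM in VE-822 and 14.4 ± 1.44 CPM in DMSO of 92.1, and 11.9 ± 0.851 and 9.49 ± 0.590 CPM in MP38 (SD, n = 3 each).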
